A study of Mus musculus with 6 samples.

Results

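MHC class II molecules display peptides from internalised proteins to CD4+ T cells. An alpha and a beta chain pair in the endoplasmic reticulum with the invariant chain, encoded by Cd74. The invariant chain is cut away in endosomes, and H2-DM then removes its last fragment so that antigenic peptides can bind, a step that H2-O restrains. The transactivator Ciita is recruited to the promoters of these genes and sets their transcription. In the mouse spleen the pathway is known from B cells, dendritic cells and macrophages, while mouse T cells make little of it. The genes described here are the 10 rows of the deposited count table for the classical chains (H2-Aa, H2-Ab1, H2-Eb1), the H2-DM chains (H2-DMa, H2-DMb1, H2-DMb2), the H2-O chains (H2-Oa, H2-Ob), Cd74 and Ciita, out of 23453 gene rows. All 10 were found by symbol and all 10 passed the filter on low counts.

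RNA was sequenced in bulk from splenocyte cultures of WT OT1 mice on the C57BL/6 strain, whose T cell receptor transgene recognises an OVA peptide. Every culture received the peptide for 48 h and then 8 h of TCM or of FCM, the medium of the samples titled Vehicle, with 3 libraries in each group and no culture without peptide. The labels do not spell out TCM or FCM, give no age, and do not say whether libraries came from separate mice or cultures, so a p-value here reflects how far these libraries scatter, and that scatter may be purely technical. The labelled cell type is cytotoxic T lymphocytes. All 10 T cell markers examined had counts, and so did all 14 B cell markers with a row in the table.

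The 2 deposited tables contradict each other on the group names. Each of the 6 normalized columns was proportional to a count column of equal replicate number but opposite group name. The names used here, count-table TCM and count-table Vehicle, follow the raw counts, and every direction below turns round under the other header. Library totals ran from 17166687 to 21197117 counts in count-table TCM and from 18729982 to 25789381 counts in count-table Vehicle, and 1 count was worth 0.0374 to 0.0655 CPM, counts scaled to a common library size after TMM normalization. The replicate 1 libraries of both groups stood apart from the others on the second principal component, which held 8.32% of the variance. Neutrophil markers were the marker list that differed most between the groups, with a summed level of 1123 to 2173 CPM in count-table TCM libraries and 7921 to 12469 CPM in count-table Vehicle libraries. In bulk RNA, fewer cells of a type and less RNA per cell cannot be told apart.

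The 3 genes that passed the test were lower in count-table TCM libraries, namely Ciita and both H2-O chains, whereas no classical chain and no H2-DM chain passed. Cd74 and H2-Aa lay close to the threshold in opposite directions. With edgeR's quasi-likelihood test and Benjamini-Hochberg adjustment over 12423 genes, 3 of the 10 genes were lower and 0 higher at an adjusted p under 0.05, beside 30.0% and 28.8% of all genes tested (58.8% in either direction). The share of class II genes called lower therefore equalled the background share. DESeq2 called 1 higher (H2-Aa) and 4 lower (the same 3 and Cd74) after adjustment, beside 30.9% and 28.7% of all genes tested. The groups did not overlap in 5 of the 10 genes, against 64.2% of all genes tested. The median log2 change of the 10 genes was -0.27, against -0.018 over all genes tested.

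The promoters of the H2 genes carry a conserved module known as the X and Y boxes, which RFX, CREB and NF-Y proteins bind and to which Ciita is recruited. RefSeq promoter sequence on GRCm38.p6, from 250 bases before to 50 bases after the start, was matched for 7 of the 10 genes. The stretches below come from genes that were lower (H2-Oa, H2-Ob) and genes that did not pass (H2-Aa, H2-Eb1, H2-DMb2), and they show that both kinds hold the same Y box letters. Each reads 5′ to 3′ on the gene's own strand, with capitals on the Y box letters TGATTGG, the X box core AGCAAC and the X2-like letters ATGATG.
H2-Oa (chr17:34092289-34092350, plus strand): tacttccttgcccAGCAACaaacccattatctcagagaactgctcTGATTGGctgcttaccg
H2-Ob (chr17:34238801-34238862, plus strand): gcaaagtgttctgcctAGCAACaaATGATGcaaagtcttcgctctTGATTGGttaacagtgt
H2-Aa (chr17:34287857-34287918, minus strand): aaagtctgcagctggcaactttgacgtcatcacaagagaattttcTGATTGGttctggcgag
H2-Eb1 (chr17:34305761-34305822, plus strand): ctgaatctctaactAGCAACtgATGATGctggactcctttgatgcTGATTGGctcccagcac
H2-DMb2 (chr17:34145112-34145173, plus strand): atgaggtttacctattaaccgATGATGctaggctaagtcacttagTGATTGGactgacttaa
Searched on both strands, TGATTGG was found for 6 of the 7 genes with a sequence, all but H2-DMa, and in 7.82% of all 32851 promoters of that length. AGCAAC was present in 14.8% and ATGATG in 11.2% of the same promoters. Where AGCAAC occurred in the printed stretches it began 32 bases before TGATTGG in H2-Oa, 29 bases in H2-Ob and 31 bases in H2-Eb1. These letters were chosen after the sequences were read and carry no test. They are matches in a window, not sites shown to be bound.

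Ciita, the master regulator of the pathway (chromosome 16, 10480059 to 10528418, in GENCODE M21 coordinates of GRCm38, or mm10), had 42.1, 37.3 and 38.9 CPM in count-table TCM libraries and 61.5, 69.8 and 65.0 CPM in count-table Vehicle libraries. Each count-table TCM library lay below each count-table Vehicle library. The log2 change was -0.73 ± 0.12 (SE), a 1.66-fold lower level (adjusted p = 0.000699, edgeR). The call held in all 12 alternative settings, with log2 changes of -0.93 to -0.68. Exons of Ciita overlap those of Dexi, which was higher in count-table TCM libraries (log2 change 0.93 ± 0.23). How the authors' counting treated strand is not given in the sources used here, so reads in the overlap cannot be assigned.

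H2-Ob, the beta chain of H2-O (chromosome 17, 34238903 to 34254414), had 60.3, 71.2 and 66.9 CPM in count-table TCM libraries and 128, 119 and 128 CPM in count-table Vehicle libraries. The groups were widely separated, with a log2 change of -0.92 ± 0.12 (1.89-fold lower, adjusted p = 0.000303, edgeR). H2-Oa, its alpha chain partner (chromosome 17, 34092340 to 34095234), had 21.5, 23.8 and 20.9 CPM in count-table TCM libraries and 30.4, 31.8 and 31.6 CPM in count-table Vehicle libraries. It too did not overlap between groups and was lower by a log2 change of -0.51 ± 0.11 (1.42-fold lower, adjusted p = 0.00354, edgeR). Both calls held in all 12 alternative settings. The chains fell unequally. H2-Ob had 2.81, 2.99 and 3.20 counts for each count of H2-Oa in count-table TCM libraries and 4.19, 3.74 and 4.06 in count-table Vehicle libraries, ranges that do not overlap. This ratio was picked after its values were seen and was not tested. H2-Oa overlaps BC051537, which had at most 6 counts in a library.

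**Figure D1:**
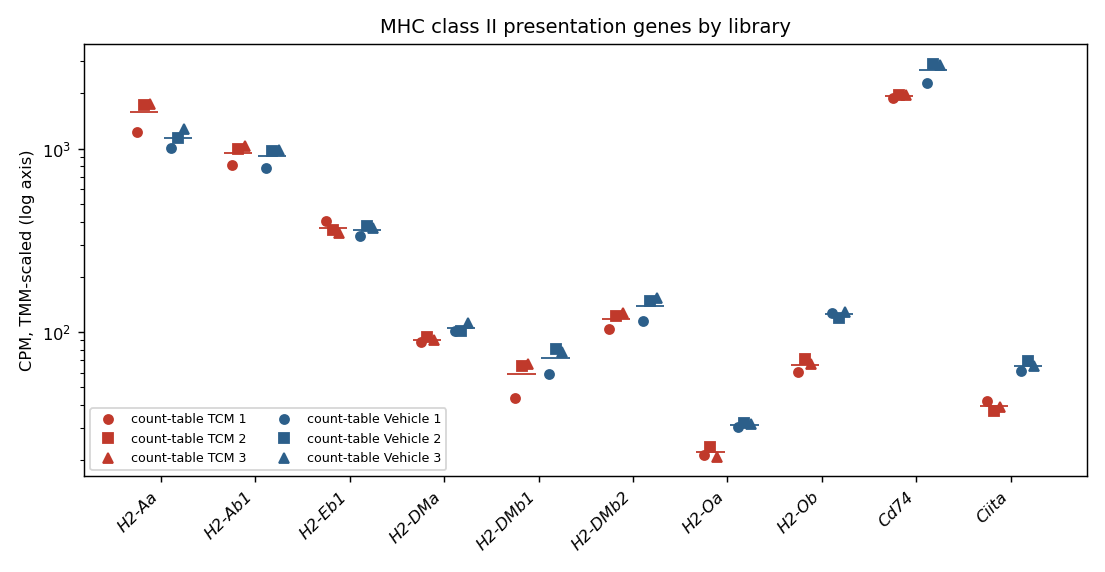
CPM of each of the 10 genes (log axis, scaled by TMM) in the 3 count-table TCM and 3 count-table Vehicle libraries, 1 symbol per replicate number and a line at each group's mean. H2-Oa, H2-Ob and Ciita separate by group with every count-table TCM library below, while H2-Ab1 and H2-Eb1 overlap.

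H2-DM, the peptide exchange factor, did not pass the test in any of its 3 chains. H2-DMa, its alpha chain (chromosome 17, 34119541 to 34139101), had 88.0, 94.6 and 90.0 CPM in count-table TCM libraries and 101, 102 and 112 CPM in count-table Vehicle libraries, a log2 change of -0.21 ± 0.12 (adjusted p = 0.157, edgeR). The groups did not overlap although the test was not passed. Its exons overlap those of Brd2, which was lower in count-table TCM libraries (log2 change -0.59 ± 0.17, adjusted p = 0.0157). The beta chains are encoded by neighbouring, closely related genes. H2-DMb1 (chromosome 17, 34153072 to 34160230) had 43.7, 65.4 and 67.2 CPM in count-table TCM libraries and 58.9, 80.5 and 77.5 CPM in count-table Vehicle libraries. H2-DMb2 (chromosome 17, 34143307 to 34151555) had 104, 123 and 126 CPM in count-table TCM libraries and 115, 148 and 153 CPM in count-table Vehicle libraries. Replicate 1 was the lowest library of its group for both genes, and the groups overlapped. Their log2 changes were -0.30 ± 0.19 and -0.23 ± 0.16 (adjusted p = 0.204 and 0.221, edgeR). Of all 50-base stretches in the H2-DMb1 transcripts, 22.7% also occur in those of H2-DMb2, so the split of reads between them is uncertain. Summed to 1 row they gave a log2 change of -0.26 (adjusted p = 0.223, edgeR).

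With the replicate number as a block, H2-DMb1 and H2-DMb2 passed at log2 changes of -0.31 and -0.23 (adjusted p = 0.005 and 0.0493, edgeR). H2-DMa still did not (adjusted p = 0.07, edgeR). The labels give same-numbered libraries no shared source, so the pairing in this block, here and below, is uncertain. When replicate 1 was dropped from each group, a setting added after the data were seen, all 3 H2-DM chains passed, with log2 changes of -0.22 for H2-DMa, -0.26 for H2-DMb1 and -0.28 for H2-DMb2. Library totals alone as the scaling also gave a call to H2-DMb1 (adjusted p = 0.0224) and H2-DMb2 (adjusted p = 0.0299, both edgeR). Without count-table TCM replicate 1 alone, the log2 changes shrank to -0.12 for H2-DMb1 and -0.15 for H2-DMb2 (adjusted p = 0.49 and 0.395, edgeR).

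The classical chains form the peptide-binding molecule itself. H2-Aa, the alpha chain of I-A (chromosome 17, 34282744 to 34287823), had 1236, 1737 and 1757 CPM in count-table TCM libraries and 1007, 1149 and 1275 CPM in count-table Vehicle libraries. Count-table TCM replicates 2 and 3 lay above all count-table Vehicle libraries, and replicate 1 lay within their range. The log2 change was 0.46 ± 0.20 (adjusted p = 0.0775, edgeR). H2-Ab1, which encodes the I-A beta chain (chromosome 17, 34257689 to 34269419), had 817, 998 and 1033 CPM in count-table TCM libraries and 782, 967 and 984 CPM in count-table Vehicle libraries. These ranges largely coincide, with a log2 change of 0.060 ± 0.18 (adjusted p = 0.789, edgeR). H2-Eb1, the beta chain of I-E (chromosome 17, 34305867 to 34316674), had 403, 361 and 347 CPM in count-table TCM libraries and 334, 378 and 368 CPM in count-table Vehicle libraries, likewise overlapping (log2 change 0.040 ± 0.14, adjusted p = 0.825, edgeR). With library totals alone as the scaling, the log2 changes of H2-Ab1 and H2-Eb1 were -0.16 and -0.16.

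H2-Aa passed as higher with the replicate block (log2 change 0.45, adjusted p = 0.000205), with DESeq2 (0.50, adjusted p = 0.0186), without count-table TCM replicate 1 (0.61, adjusted p = 0.00932) and without the replicate 1 libraries of both groups (0.52, adjusted p = 6.80e-06). In the other 8 settings it did not pass. H2-Aa and H2-Ab1 encode partners in 1 protein, and their counts did not move equally. H2-Aa had 1.51, 1.74 and 1.70 counts for each count of H2-Ab1 in count-table TCM libraries, against 1.29, 1.19 and 1.30 in count-table Vehicle libraries. The ranges do not overlap. This ratio was chosen after its values were seen and has no test.

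C57BL/6 mice are known to lack the I-E protein because their E alpha gene is defective. The row of that gene, H2-Ea-ps, held 0 counts in all 3 count-table TCM libraries and 1, 0 and 0 counts in count-table Vehicle libraries, too few to test. Transcripts of the partner chain of H2-Eb1 were thus at or near 0 counts at this depth. H2-Eb2, a further E beta gene of low abundance, had 15.2, 16.0 and 14.7 CPM in count-table TCM libraries and 14.6, 13.2 and 13.9 CPM in count-table Vehicle libraries (log2 change 0.13 ± 0.11, adjusted p = 0.313, edgeR).

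Cd74, the invariant chain that chaperones class II chains (chromosome 18, 60803848 to 60812652), was the most abundant of the 10. It had 1879, 1965 and 1968 CPM in count-table TCM libraries and 2289, 2905 and 2870 CPM in count-table Vehicle libraries. No count-table TCM library reached a count-table Vehicle library. The log2 change of -0.47 ± 0.19 had an adjusted p = 0.0566 (edgeR). It passed with the replicate block (-0.46, adjusted p = 0.000178), with DESeq2 (-0.44, adjusted p = 0.00611), with library totals alone (-0.68, adjusted p = 0.0023), without count-table Vehicle replicate 1 (-0.58, adjusted p = 0.0308) and without the replicate 1 libraries of both groups (-0.56, adjusted p = 1.25e-06). The microRNA row Mir5107, which overlaps Cd74 exons, held 15 to 65 counts in a library and was lower (log2 change -1.30 ± 0.22). Reads in that overlap cannot be assigned either, so this row is no separate result.

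With the replicate block, 6 of the 10 genes were lower and 1, H2-Aa, was higher, beside 37.0% and 36.3% of all genes tested in that fit. Without the replicate 1 libraries of both groups, 7 were lower and 1 higher, beside 37.9% and 36.3%. H2-Ab1 and H2-Eb1 had no call in either fit, and H2-DMa had none with the block. For the other settings, the share of all genes called lower and higher was 31.9% and 19.0% with library totals alone, 28.6% and 30.2% with DESeq2 size factors in edgeR, 28.7% and 30.9% with DESeq2, and 23.2% and 22.5% without a filter on low counts. Without count-table TCM replicate 1, 2 or 3 in turn, 33.2%, 22.3% and 24.7% were lower, and 31.9%, 22.7% and 24.9% higher. Without count-table Vehicle replicate 1, 2 or 3 in turn, 27.0%, 25.3% and 25.9% were lower, and 26.9%, 24.9% and 24.5% higher. Against these shares stand the 3 to 7 class II genes called lower and the 0 to 1 called higher of 10.

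**Figure D2:**
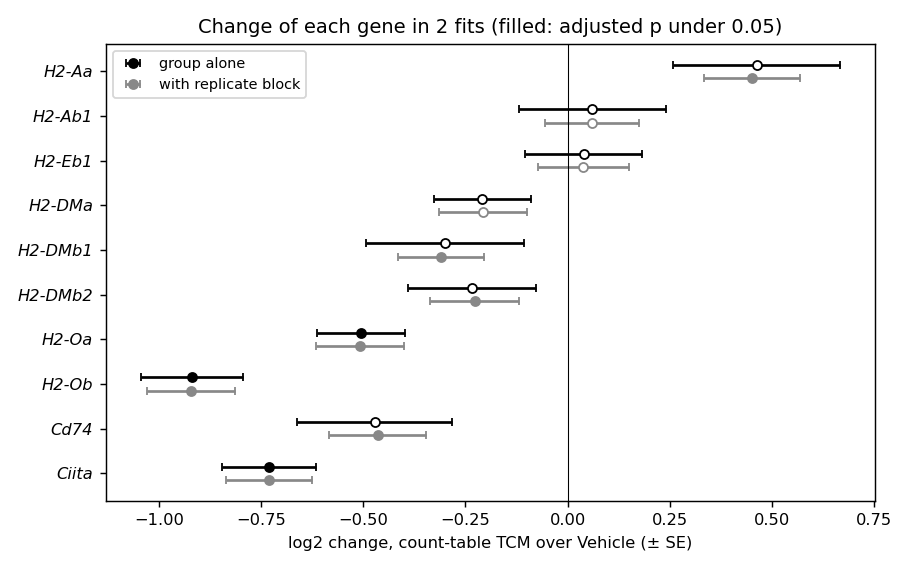
Log2 change of each gene, count-table TCM over count-table Vehicle, with its SE as bars, from edgeR fits with the group alone (black) and with the replicate number as a block (grey). Filled points have an adjusted p under 0.05. The estimates differ little between the fits, the bars are narrower with the block, least so for H2-Oa, and H2-Aa at 0.46 is the positive value farthest from 0.

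Per kilobase of exon, the scale on which levels of different genes can be set side by side, Cd74 averaged 1154 ± 30.1 CPM per kb in count-table TCM libraries and 1601 ± 206 in count-table Vehicle libraries (SD, n = 3 each). H2-Aa followed at 415 ± 77.6 and 301 ± 35.2 CPM per kb, and H2-Ab1 at 370 ± 45.1 and 355 ± 43.7, again with count-table TCM before count-table Vehicle. By these means the order of the I-A chains was the reverse in count-table Vehicle libraries. The SDs treat each gene apart although both were read in the same libraries, so they do not settle that order. The count ratio of H2-Aa to H2-Ab1 within a library, given above, did not overlap between the groups. H2-Eb1 was next at 190 ± 14.9 and 185 ± 11.9 CPM per kb. The H2-DM chains ranged from 26.4 (H2-DMa) to 67.4 (H2-DMb2) CPM per kb in count-table TCM libraries and from 30.5 to 79.3 in count-table Vehicle libraries. H2-Oa and H2-Ob stood at 15.7 ± 1.07 and 12.3 ± 1.01 CPM per kb in count-table TCM libraries. In count-table Vehicle libraries they had 22.3 ± 0.535 and 23.3 ± 0.962, a difference about as large as their SDs. Ciita was lowest at 4.14 ± 0.261 CPM per kb in count-table TCM libraries and 6.86 ± 0.439 in count-table Vehicle libraries. Exon lengths are unions over annotated transcripts and may exceed those expressed here.

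Together the 10 genes took 0.514%, 0.473% and 0.463% of all counts in count-table TCM libraries and 0.577%, 0.617% and 0.625% in count-table Vehicle libraries. The groups did not overlap, and the exact two-sided permutation test gave p = 0.1, the smallest value that 3 against 3 libraries allow. That share is taken of raw totals, and scaling by totals shifts the median gene to a log2 change of -0.23. With TMM scaling the summed levels overlapped, at 4695 to 5515 CPM in count-table TCM libraries and 4907 to 6063 CPM in count-table Vehicle libraries. Within that total the make-up differed. Cd74 held 40.0%, 35.9% and 35.7% of the class II counts in count-table TCM libraries, against 46.7%, 48.8% and 47.3% in count-table Vehicle libraries. H2-Aa held 26.3%, 31.7% and 31.9% in count-table TCM libraries and 20.5%, 19.3% and 21.0% in count-table Vehicle libraries. H2-Ab1 took 17.4% to 18.7% in count-table TCM libraries and 15.9% to 16.3% in count-table Vehicle libraries.

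**Figure D3:**
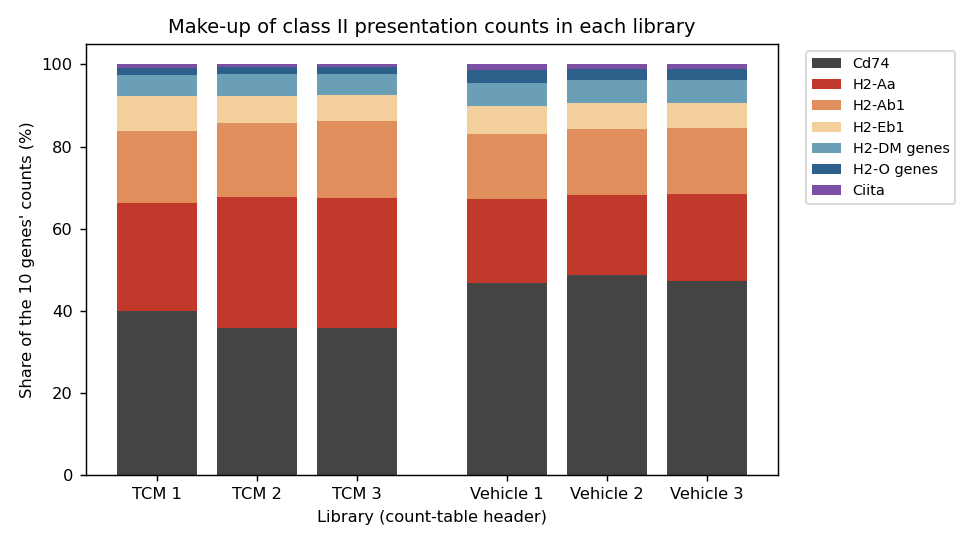
Share of each gene or gene group in the summed counts of the 10 class II presentation genes, 1 bar per library, count-table TCM on the left and count-table Vehicle on the right. The Cd74 part ranges from 35.7% to 40.0% in count-table TCM libraries and from 46.7% to 48.8% in count-table Vehicle libraries, and the H2-Aa part is larger in the count-table TCM bars.

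Ratios within a library do not depend on the scaling between libraries. H2-DM chains had 0.0961, 0.0913 and 0.0904 counts for each count of the classical chains in count-table TCM libraries, and 0.129, 0.133 and 0.130 in count-table Vehicle libraries. H2-O chains had 0.347, 0.336 and 0.310 counts for each H2-DM count in count-table TCM libraries and 0.575, 0.457 and 0.468 in count-table Vehicle libraries. On the log2 scale these ratios differed by -0.50 and -0.59. With medians of log2 CPM in place of summed counts, H2-DM over the classical chains differed by -0.27 (exact two-sided permutation p = 0.2) and H2-O over H2-DM by -0.51. Cd74 over the classical chains differed by -0.72, with 0.765, 0.635 and 0.627 in count-table TCM libraries and 1.08, 1.16 and 1.09 in count-table Vehicle libraries. Ciita over the classical chains differed by -0.99, with 0.0172, 0.0120 and 0.0124 in count-table TCM libraries and 0.0290, 0.0280 and 0.0248 in count-table Vehicle libraries. The groups did not overlap in any of these ratios of summed counts, and each had p = 0.1 in an exact two-sided permutation test, before and after adjustment over the 5 ratios tested. The ratios show unequal change within the family, not that any gene stayed the same.

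At the median, B cell markers were lower in count-table TCM libraries by more than the class II genes (log2 change -1.07, against -0.27). Of 14 tested B cell markers 9 were lower, 0 higher and 5 not called, beside 30.0% lower and 28.8% higher of all genes tested. Their summed level was 1327 to 1580 CPM in count-table TCM libraries against 2242 to 2693 CPM in count-table Vehicle libraries. The most abundant was Cd79a, a chain of the B cell receptor complex (log2 change -1.12 ± 0.26, adjusted p = 0.00554, edgeR). The 5 markers not called had log2 changes of -0.16 (Ms4a1) to 0.22 (Blk), 2 genes named after their values were seen. No B cell marker in the table was at 0 in all libraries. With the replicate block 1 B cell marker was higher, beside 36.3% of all genes tested. For each B cell marker count there were 3.54, 3.60 and 3.49 class II counts in count-table TCM libraries and 2.19, 2.21 and 2.33 in count-table Vehicle libraries (log2 difference 0.66, exact two-sided permutation p = 0.1). With medians of log2 CPM in place of summed counts the difference was 0.25 (exact permutation p = 0.2). The part that B cells have in the class II changes was not tested.

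Markers of other presenting cells moved in both directions. Their calls stand beside 30.0% of all genes tested called lower and 28.8% higher. Of 13 macrophage and monocyte markers 10 were lower and 1 higher (median log2 change -1.56), with a summed level of 247 to 290 CPM in count-table TCM libraries and 893 to 1133 CPM in count-table Vehicle libraries. Lyz2, which encodes lysozyme, and the monocyte gene Ly6c2 led this list by level and were lower by log2 changes of -3.66 ± 0.15 and -2.09 ± 0.24. Of 10 tested dendritic cell markers 5 were lower and 3 higher (median -0.43). Their summed level was higher in count-table TCM libraries, 1324 to 1454 CPM against 829 to 1059 CPM in count-table Vehicle libraries. The chemokine gene Ccl22 (log2 change 0.74 ± 0.18) and the chemokine receptor gene Ccr7 (1.02 ± 0.15) led this list by level and were higher. Fscn1, next by level, was lower (-0.70 ± 0.15). Activated lymphocytes can also express Ccl22 and Ccr7, and the source of their RNA was not tested. Xcr1, a defining marker of cross-presenting dendritic cells, had 0 counts in all count-table TCM libraries and 2, 1 and 0 counts in count-table Vehicle libraries, and Cd209a had 0 in all 6. Clec9a, another marker of that subset, had 2, 0 and 1 counts in count-table TCM libraries and 99, 119 and 135 counts in count-table Vehicle libraries (lower, adjusted p = 2.93e-06, edgeR). Batf3, on the same list, was higher (adjusted p = 3.24e-06, edgeR). It had 25.8, 35.8 and 37.3 CPM in count-table TCM libraries and 3.49, 4.12 and 4.81 CPM in count-table Vehicle libraries. Fscn1, Xcr1, Cd209a, Clec9a and Batf3 were named after their values were seen. The part of these cells was not tested either.

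The remaining marker lists describe cells that lack the pathway or make little of it. Beside their calls, 30.0% of all genes tested were lower and 28.8% higher. Of 10 T cell markers 2 were higher and 2 lower (median 0.048), with a summed level of 1599 to 1913 CPM in count-table TCM libraries and 1006 to 1194 CPM in count-table Vehicle libraries. The most abundant, Thy1 and Cd3d, were higher by log2 changes of 1.46 ± 0.18 and 0.76 ± 0.21. The coreceptor genes Cd8a and Cd4 were lower, by log2 changes of -0.67 ± 0.12 and -1.02 ± 0.15 (adjusted p = 0.00115 and 0.000423, edgeR). Cd8a and Cd4 were named after their values were seen. Without count-table TCM replicate 2, 1 T cell marker was higher, beside 22.7% of all genes tested. Of 8 neutrophil markers 7 were lower and 0 higher (median -4.82), with S100a9 at -2.37 ± 0.29 and S100a8 at -1.65 ± 0.30. Of 5 NK cell markers 1 was higher and 2 lower (median -0.20), with Gzma at 0.88 ± 0.24 and Eomes at -1.38 ± 0.11. The number higher was 2 with the replicate block or without count-table TCM replicate 1, beside 36.3% and 31.9% of all genes tested. Of 6 tested erythroid and platelet markers 5 were lower and 0 higher (median -1.33), among them Hbb-bs at -1.90 ± 0.29 and Itga2b at -1.10 ± 0.20. Hba-a2 was at 0 in all libraries.

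**Figure D4:**
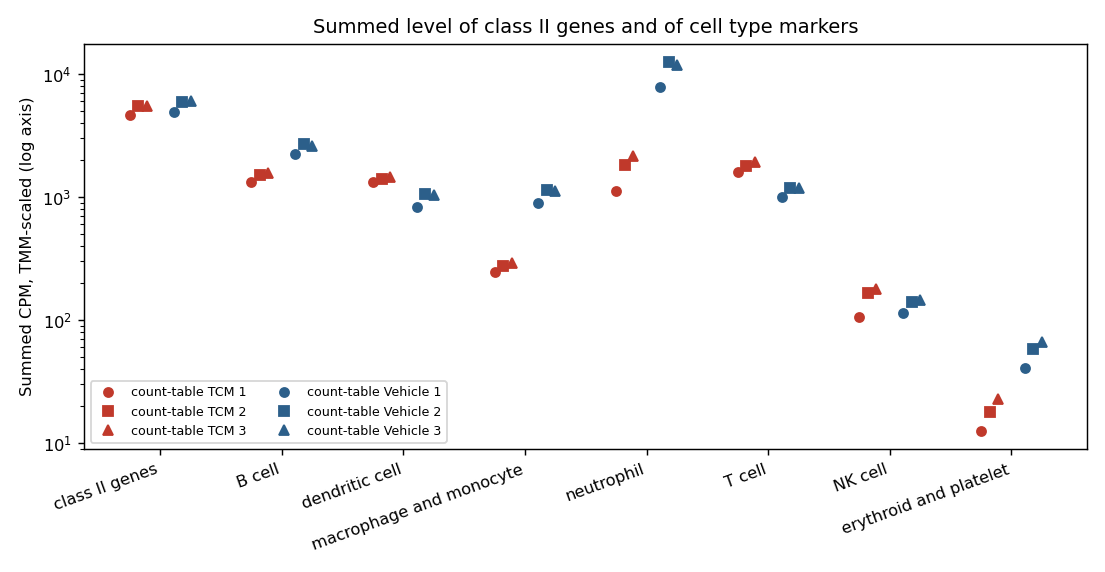
Summed CPM (log axis, scaled by TMM) of the 10 class II genes and of 7 cell type marker lists in each count-table TCM and count-table Vehicle library, 1 symbol per replicate number. B cell markers lie at 1327 to 1580 CPM in count-table TCM libraries and 2242 to 2693 CPM in count-table Vehicle libraries, whereas the class II sums overlap between the groups.

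The lists of promoter factors and of genes upstream of Ciita held calls in both directions, beside 30.0% of all genes tested called lower and 28.8% higher. In the list of factors that occupy class II promoters, 5 of 10 were lower and 2 higher (median log2 change -0.48). Crebbp and Ep300, acetyltransferase coactivators that Ciita is known to engage, were lower by log2 changes of -0.95 ± 0.15 and -0.82 ± 0.14 (adjusted p = 0.00062 and 0.00101, edgeR). Crebbp had 94.6, 69.7 and 79.7 CPM in count-table TCM libraries and 165, 155 and 152 CPM in count-table Vehicle libraries. Rfx5, the DNA-binding subunit of the X box factor, had 44.2, 32.2 and 33.0 CPM in count-table TCM libraries and 64.1, 54.2 and 58.5 CPM in count-table Vehicle libraries (log2 change -0.69 ± 0.15, adjusted p = 0.00394, edgeR). Rfx5, Nfya and Kat2b, which were also lower, and Rfxap, which was higher, are named after their values were seen. Nfyb, a subunit of the Y box factor NF-Y, was higher, with 107, 139 and 131 CPM in count-table TCM libraries and 37.0, 30.9 and 35.5 CPM in count-table Vehicle libraries (3.64-fold, adjusted p = 1.28e-05, edgeR). Nfya, another NF-Y subunit, lost its call without count-table TCM replicate 2, TCM replicate 3 or Vehicle replicate 1 (adjusted p of 0.0541 to 0.0768), and Rfxap lost its call with library totals alone (adjusted p = 0.392).

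Of 12 genes in the list upstream of Ciita, 6 were lower and 1 higher (median -0.40). Ifng, whose product is the classic inducer of Ciita, was the gene that was higher, with 1579, 2103 and 2354 CPM in count-table TCM libraries and 812, 747 and 869 CPM in count-table Vehicle libraries. Irf1, a transcription factor that acts on the interferon-inducible Ciita promoter, had 108, 108 and 124 CPM in count-table TCM libraries and 275, 338 and 311 CPM in count-table Vehicle libraries, 2.72-fold lower (adjusted p = 5.60e-05, edgeR). Transcripts of Ifng and of Irf1 and Ciita thus differed in opposite directions between the same libraries.

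Of 8 genes that process antigen or the invariant chain, 3 were higher and 0 lower (median 0.24). Over all genes tested 28.8% were higher and 30.0% lower. The endosomal proteases Lgmn, Ctsl and Ctsd were higher by log2 changes of 0.71 ± 0.13, 0.71 ± 0.13 and 0.46 ± 0.15 (adjusted p = 0.00173, 0.00189 and 0.025, edgeR). Lgmn had 63.5, 66.5 and 71.8 CPM in count-table TCM libraries and 35.2, 42.5 and 45.6 CPM in count-table Vehicle libraries. With library totals alone as the scaling, Ctsl and Ctsd did not pass (adjusted p = 0.0778 and 0.214). Ctsd also lost its call without count-table Vehicle replicate 1, 2 or 3 or count-table TCM replicate 2, with adjusted p of 0.0552 to 0.0789.

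Of 7 tested transport and turnover genes 2 were higher and 0 lower (median 0.24), beside 28.8% and 30.0% of all genes tested. Cd81, a tetraspanin of B and T cells, had 424, 707 and 768 CPM in count-table TCM libraries and 89.6, 124 and 127 CPM in count-table Vehicle libraries, 5.56-fold higher (adjusted p = 6.34e-05, edgeR). Cd82, another tetraspanin, was 1.76-fold higher (adjusted p = 0.0187) and did not pass without count-table Vehicle replicate 1, TCM replicate 2 or TCM replicate 3 (adjusted p of 0.0543 to 0.0699). Rab7, a late endosome GTPase, did not pass (log2 change -0.26 ± 0.12, adjusted p = 0.0878). With the replicate block 4 of these genes were higher and 2 lower, beside 36.3% and 37.0% of all genes tested. In that fit Rab7 was lower (adjusted p = 0.0198, edgeR). Rab7 was also lower without count-table Vehicle replicate 1 (adjusted p = 0.0347) and without the replicate 1 libraries of both groups (adjusted p = 0.000609, both edgeR).

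Ligands that accompany class II on presenting cells diverged. Of 9 costimulatory genes 4 were lower and 2 higher (median -0.19), beside 30.0% and 28.8% of all genes tested. Icosl, the ligand of ICOS, had 6.12, 4.65 and 4.38 CPM in count-table TCM libraries and 61.5, 56.1 and 58.6 CPM in count-table Vehicle libraries, 11.6-fold lower (adjusted p = 5.41e-07, edgeR). Tnfsf4, which encodes the ligand of OX40, had 126, 179 and 160 CPM in count-table TCM libraries and 15.3, 13.6 and 16.1 CPM in count-table Vehicle libraries, 10.3-fold higher (adjusted p = 1.15e-06, edgeR). Cd80, a ligand of CD28 and CTLA-4, was 4.16-fold higher (adjusted p = 4.25e-06). Without count-table Vehicle replicate 2, TCM replicate 2 or TCM replicate 3, 2 costimulatory genes were lower in place of 4. In those fits 25.3%, 22.3% and 24.7% of all genes tested were lower.

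The class II genes other than Cd74 and Ciita lie on chromosome 17 between 34092340 and 34316674, among unrelated neighbours and peptide transport genes of the class I pathway. Of 6 such neighbours 2 were lower and 0 higher (median -0.29), beside 30.0% and 28.8% of all genes tested. Brd2, which encodes a chromatin reader, was lower by a log2 change of -0.59 (adjusted p = 0.0157) and did not pass without count-table Vehicle replicate 3, TCM replicate 2 or TCM replicate 3 (adjusted p of 0.057 to 0.0818). Btnl2, a butyrophilin-like gene of low level, was 2.33-fold lower (adjusted p = 0.00204). Tap1, a subunit of the peptide transporter that serves class I, had 462, 384 and 334 CPM in count-table TCM libraries and 528, 485 and 511 CPM in count-table Vehicle libraries (log2 change -0.37 ± 0.16, adjusted p = 0.0816, edgeR). It passed with the replicate block (adjusted p = 0.00126) and without count-table TCM replicate 1 (adjusted p = 0.0119). Tap1 also passed with library totals alone (adjusted p = 0.0483, edgeR) and with DESeq2 (adjusted p = 0.0463). The same held without the replicate 1 libraries of both groups (adjusted p = 3.57e-05, edgeR). With Brd2 lost, 1 neighbour was lower, beside 22.3% to 25.9% of all genes tested. There were 6 lower with library totals alone, beside 31.9% of all genes tested, a scaling that moved the median log2 change of all genes to -0.23. Without the replicate 1 libraries of both groups 5 were lower, beside 37.9%.

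**Figure D5:**
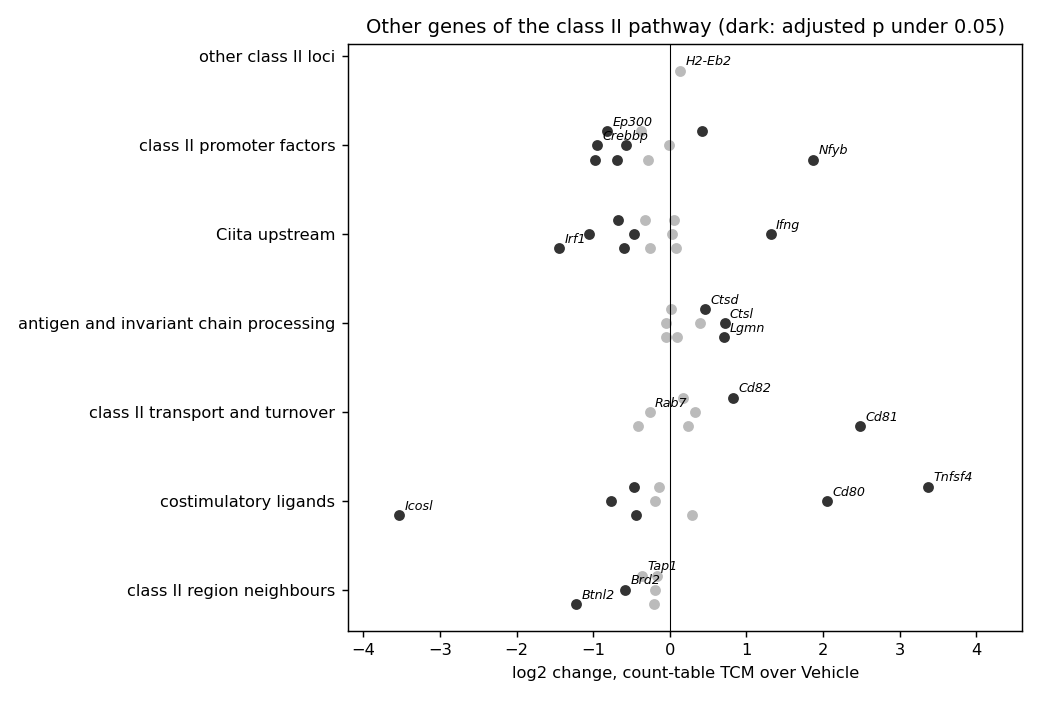
Log2 change, count-table TCM over count-table Vehicle, of the tested genes of the 7 pathway lists, 1 point per gene, with names for those among the 3 smallest p-values of each list and 1 gene left out. Dark points have an adjusted p under 0.05. The proteases Lgmn, Ctsl and Ctsd lie right of 0, and so does Ifng, while Irf1 lies left of it.

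Across the 7 pathway lists, 17 of 53 tested genes were lower and 10 higher, beside 30.0% and 28.8% of all genes tested, with a median log2 change of -0.19. Without count-table TCM replicate 2, 11 were lower, beside 22.3% of all genes tested. Without the replicate 1 libraries of both groups 27 were, beside 37.9%.

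The genes outside the family whose profile over the 6 libraries came closest to the mean of H2-Aa, H2-Ab1, H2-Eb1 and Cd74 were Gltscr2, Gorasp2, Pcif1, Zfand3 and Med19. Likeness was the root mean square difference of centred log2 CPM over 6 libraries, 0.0230 for Gltscr2 to 0.0303 for Med19 among 8522 candidates. None of these 5 passed the test, with log2 changes of -0.011 (Zfand3) to 0.055 (Gorasp2). H2-Ab1 itself lay at 0.0551 from that mean profile, H2-Eb1 at 0.128, H2-Aa at 0.243 and Cd74 at 0.247, so the mean profile averages genes whose log2 changes had opposite signs.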

How the data were processed

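Raw exon read counts, whole numbers for each gene symbol in each of the 6 libraries, were deposited in 1 table. A second table deposited by the authors holds a signal, and its values equal those counts times a constant for each library. STAR 2.7.2d, DESeq2 1.28.1 and mm10 are named per the submitters' processing notes, without a counting tool, annotation or strand setting. Undoing the scaling returned whole reads for 100% of nonzero values (tolerance 0.1 reads), and edgeR on them, grouped by that table's header, called 3726 genes higher and 3584 lower. The 92 spike-in rows held 0 counts and were left out.

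Columns were matched to samples by title. Genes kept by filterByExpr were scaled with TMM and tested with edgeR 4.0.16 (R 4.3.3, quasi-likelihood, group as the sole term), and DESeq2 1.42.0 was an alternative. The code was tested on simulated data. SE is the log2 change over the square root of F. CPM were scaled by TMM. The number of counts in each library limits precision. Replicates of a group differed beyond sampling noise (chi-square per gene 4.87 to 104 over pairs), so none was counted as a duplicate. Deviations of same-numbered libraries from their group means correlated at 0.60, 0.15 and 0.36 for replicates 1, 2 and 3. The pairing by number, used for the replicate block, rests on these values alone, since the labels give a number and no shared source. Beyond replicate 1 they do not single out the pairs, since count-table TCM 2 correlated at 0.27 with Vehicle 3 and TCM 3 at 0.42 with Vehicle 2.

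The 10 genes, gene lists and rules were chosen with earlier results of these data known. Named were the 10 genes, the 3 smallest p-values of each pathway list, the 2 most abundant of each marker list, and the 5 most similar profiles among genes whose mean log2 CPM was 3 or more. Profiles used log2 CPM with a prior count of 2, and unnamed gene models and date-like symbols were left out. Spi1, Adgre1 and Hbb-bs were read from rows with older symbols, and listed genes without a row were not analysed here. The values of 2 genes that this rule selects are not reported here. Alternatives were DESeq2, other scalings, no filter on low counts, the replicate block, medians of log2 CPM in place of summed counts for the ratios, totals without Rn45s for the share of counts, leaving out each library, and, added after the data were seen, leaving out both replicate 1 libraries.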

Additional observations from a re-analysis of the deposited data

How the results depend on the processing

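Ciita, H2-Oa and H2-Ob kept their direction and their call in all 12 alternative settings, and H2-Ab1 and H2-Eb1 were called in none. With the group alone 3 class II genes were lower and 0 higher. The counts became 6 lower with library totals alone, beside 31.9% of all genes tested. With DESeq2 they were 4 lower and 1 higher, beside 28.7% and 30.9%. With the replicate block they were 6 lower and 1 higher, beside 37.0% and 36.3%. Without both replicate 1 libraries they were 7 lower and 1 higher, beside 37.9% and 36.3%. Under the normalized table's header they were 0 lower and 3 higher, beside 3584 genes lower and 3726 higher over all tested. Leaving out 1 library at a time gave 3 to 4 lower, beside 22.3% to 33.2% of all genes tested, and 0 to 1 higher, beside 22.7% to 31.9%. It gave 11 to 21 pathway genes lower, beside 22.3% to 33.2% of all genes tested. In the full set 17 pathway genes were lower, and 27 without both replicate 1 libraries. Library totals alone moved the median log2 change of all genes to -0.23 from -0.018 and called 2364 genes higher and 3965 lower, against 3584 and 3726 with TMM. Class II changes under that scaling are to be read against that shift. The cause of these differences was not tested. The replicate block changed no other call of a named gene than those given beside the results. Batf3, Cd4, Cd8a, Ms4a1, Blk and Fscn1 were not followed through the alternative settings. They are left out of that statement and of the signs given next.

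Under the count table names, signs turned only in genes without a call. With library totals alone H2-Ab1 had -0.16, H2-Eb1 -0.16, H2-Eb2 -0.082, Gltscr2 -0.17, Gorasp2 -0.16, Pcif1 -0.17 and Med19 -0.19. Zfand3 had 0.023 with DESeq2 size factors in edgeR and 0.023 with DESeq2. Without both replicate 1 libraries H2-Eb1 had -0.087 and Med19 -0.055. Leaving out 1 library at a time gave -0.044 to 0.16 for H2-Ab1, -0.022 to 0.093 for H2-Eb1, -0.027 to 0.11 for Gltscr2, -0.031 to 0.12 for Gorasp2, -0.035 to 0.12 for Pcif1, -0.11 to 0.061 for Zfand3 and -0.077 to 0.066 for Med19. The ratios and the share of counts kept their direction in all their alternatives under the same names, but medians of log2 CPM in place of sums cut H2-DM over the classical chains to -0.27 from -0.50 and the class II genes over B cell markers to 0.25 from 0.66 (exact permutation p = 0.2 for both). With 3 libraries a group, exact tests cannot go below 0.1.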
